A study of Homo sapiens with 7 samples.

Results

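Lysozyme, a group of secreted or surface-bound proteases and protease regulators, and the granule proteoglycan that stores such proteins were followed across 7 RNA libraries of the human cell line MOLM13, which comes from an acute myeloid leukemia. The 10 genes were LYZ, SRGN, MMP9, ADAM8, TIMP1, TIMP2, SERPINA1, SERPINB1, PLAUR and THBD, matched by symbol, and all 10 were among the 11408 genes with a value. Gene coordinates below are those of GENCODE 29 on GRCh38. Of the 7 libraries, 4 are labelled sgZFP36L2 and carried 1 of 2 guide RNAs against ZFP36L2, called guide 3 and guide 5 after the names in the deposited tables, with 2 libraries each; these 4 are the guide libraries below. The other 3 carried sgRosa, a guide that targets no gene per the labels. All cells were harvested 6 days after transduction, and every group is MOLM13 without further treatment in the labels. The labels do not say whether the cells were clones or pools, or whether replicates were separate cultures, so a p-value here covers the spread among these libraries, which may be technical.

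Myeloid cells make these proteins for defence and for movement through tissue. Lysozyme cuts the wall of bacteria and is a standard marker of the monocyte lineage, while serglycin, the product of SRGN, carries sulfated sugar chains that hold lysozyme, proteases and chemokines in granules. Matrix metalloproteinases cut extracellular matrix and are blocked by TIMP proteins, serine proteases such as neutrophil elastase are blocked by serpins, and the receptor encoded by PLAUR focuses plasmin formation at the cell surface. ZFP36L2 is an RNA-binding protein of the tristetraprolin family, which binds AU-rich stretches in the 3′ UTR of messenger RNAs and speeds their decay.

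ZFP36L2 RNA itself was between 164 and 322 FPKM in the libraries labelled sgZFP36L2, against 73.9 to 80.2 FPKM in the sgRosa libraries. FPKM are reads scaled by an effective library size and, in these files, by the length of the whole gene with its introns. The targeted transcript was thus higher, not lower, in the libraries labelled as knockout, so its RNA level does not check the label, and protein was not analysed here. The guide libraries held 28087405 to 38806678 reads in listed genes and the sgRosa libraries 16907955 to 25164359. The effective size used in the deposited scaling was 2.14e+07 for sgRosa replicate 2, below its 25164359 reads. For sgRosa replicates 1 and 3 it was 1.85e+07 and 2.44e+07, above their 16907955 and 22631858 reads. Reads of 3 mitochondrial pseudogenes made up 0.160% of the reads in listed genes in sgRosa replicate 2 and 0.0463% to 0.0828% in the other libraries. Of 10 myeloid leukemia genes 9 were listed, with a summed level of 1714 to 2204 CPM (reads scaled to effective library size) in guide libraries and 1362 to 1689 CPM in sgRosa libraries. No B cell, erythroid, megakaryocyte, epithelial or stromal marker was listed, and of the T cell list CD3D alone was, at 5.70 to 7.98 CPM in guide libraries and 13.6 to 18.5 CPM in sgRosa libraries. The part of these differences in the results below was not tested, and in bulk RNA a change in the number of expressing cells and a change per cell cannot be told apart.

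The AU-rich heptamer TATTTAT is the core of the family's binding site written as DNA, the sequence through which ZFP36L2 could contact these transcripts. It was searched on the sense strand of the 3′ UTR of 1 annotated transcript per gene in GENCODE 29. The heptamer was found in 2 of the 10 members. THBD held 5 copies in 2144 bases of 3′ UTR, of which 2 lie in the longer nonamer TTATTTATT, and PLAUR held 1 copy, itself in a nonamer, in 310 bases. The other 8 members held none, which says only that these letters are not in the 3′ UTR of the transcript read. Other annotated transcripts were not searched. Among tested genes 28.3% of 6393 3′ UTRs held the heptamer, and among genes higher with both guides 23.2% of 1453 did, with median 3′ UTR lengths of 988 and 711 bases. The sites shown are the overlapping pair of THBD heptamers (chr20:23046065-23046093, minus strand, GRCh38) and the PLAUR heptamer (chr19:43648601-43648629, minus strand, GRCh38), with the heptamers in capitals.
THBD: ttgtacatagtTATTTATTTATtggagat
PLAUR: aatattcatatTATTTATtttatacttac

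Promoters were read from RefSeq (GRCh38.p14), as 250 bases before to 50 bases after each start. The table held 6 entries for 5 of the members (TIMP1, PLAUR, SERPINB1, ADAM8 and 2 starts of SERPINA1). Both strands were searched for TGANTCA (AP-1), TTNNGNAA (C/EBP) and GAGGAAGT (PU.1), motifs of factors active in monocytes, which occur in 7.71%, 36.8% and 2.59% of all 35116 promoters of this length. Counted from the start, PLAUR held an AP-1 match at -186 and a C/EBP match at -62, and the downstream SERPINA1 start held a C/EBP match at -202. The upstream SERPINA1 start and the other 3 entries matched none of the 3 motifs. SERPINA1 is shown at both starts because it is known to be read from an upstream start in monocytes and macrophages and a downstream start in liver cells, and the deposited values, 1 per gene, do not separate them. The windows are PLAUR at chr19:43670120-43670419, the upstream SERPINA1 start at chr14:94390586-94390885 and the downstream one at chr14:94388553-94388852, all on the minus strand, with motif matches in capitals.
PLAUR: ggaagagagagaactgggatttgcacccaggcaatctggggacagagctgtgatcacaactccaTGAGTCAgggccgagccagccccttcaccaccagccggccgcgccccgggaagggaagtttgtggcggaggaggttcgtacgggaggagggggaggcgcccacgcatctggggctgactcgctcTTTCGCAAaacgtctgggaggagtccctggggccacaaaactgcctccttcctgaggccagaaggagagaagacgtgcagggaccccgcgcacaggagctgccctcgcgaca
SERPINA1 upstream: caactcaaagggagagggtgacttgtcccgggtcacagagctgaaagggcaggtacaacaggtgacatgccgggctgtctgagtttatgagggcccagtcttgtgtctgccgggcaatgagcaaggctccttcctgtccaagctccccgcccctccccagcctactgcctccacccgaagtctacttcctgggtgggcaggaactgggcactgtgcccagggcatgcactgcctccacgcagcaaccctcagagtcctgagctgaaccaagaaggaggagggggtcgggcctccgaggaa
SERPINA1 downstream: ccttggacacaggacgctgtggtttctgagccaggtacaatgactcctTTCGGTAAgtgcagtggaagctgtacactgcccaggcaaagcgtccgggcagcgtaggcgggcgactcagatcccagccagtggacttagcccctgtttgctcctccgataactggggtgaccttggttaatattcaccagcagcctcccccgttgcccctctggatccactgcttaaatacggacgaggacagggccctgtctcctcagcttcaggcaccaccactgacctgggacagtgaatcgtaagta

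Comparing the libraries labelled sgZFP36L2 with sgRosa addresses, per the study's design, how RNA levels change on ZFP36L2 knockout, though loss of ZFP36L2 could not be checked here. LYZ, MMP9, TIMP1, TIMP2, SERPINA1, PLAUR and THBD were all higher past the threshold, an adjusted p of 0.05 from limma with Benjamini-Hochberg adjustment over 6783 tested genes. All 9 estimates were above 0. Of the 10 members, 9 had enough signal to be tested, that is 2 or more libraries at 1 FPKM or above, and 7 of those 9 rose. Among all tested genes 22.5% rose and 19.7% fell. The 9 include MMP9, SERPINA1 and TIMP2, in which no sgRosa library reached 1 FPKM, so these 3 entered the test only through the guide libraries. Of the 6 members that sgRosa libraries also carried past the filter, 4 rose. The share that rose among all genes carried past it in that way was not computed. At a mean FPKM of at least 5 the same 6 were tested and 4 rose, where 557 of 2347 tested genes did. With no filter 8 of 10 rose, against 19.2% of all genes, ADAM8 being the one added. The median log2 change of the 9 tested members was 1.37, and that of all tested genes was -0.0050. In 8 of the 9, every guide library lay above every sgRosa library, which held for 21% of tested genes. Both the median and this count include the 3 members tested only through the guide libraries. Among the other 6, SERPINB1 alone overlapped, and the log2 changes ran from 0.34 for SRGN to 2.57 for THBD. The share without overlap was not computed for all genes restricted in that way.

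**Figure D1:**
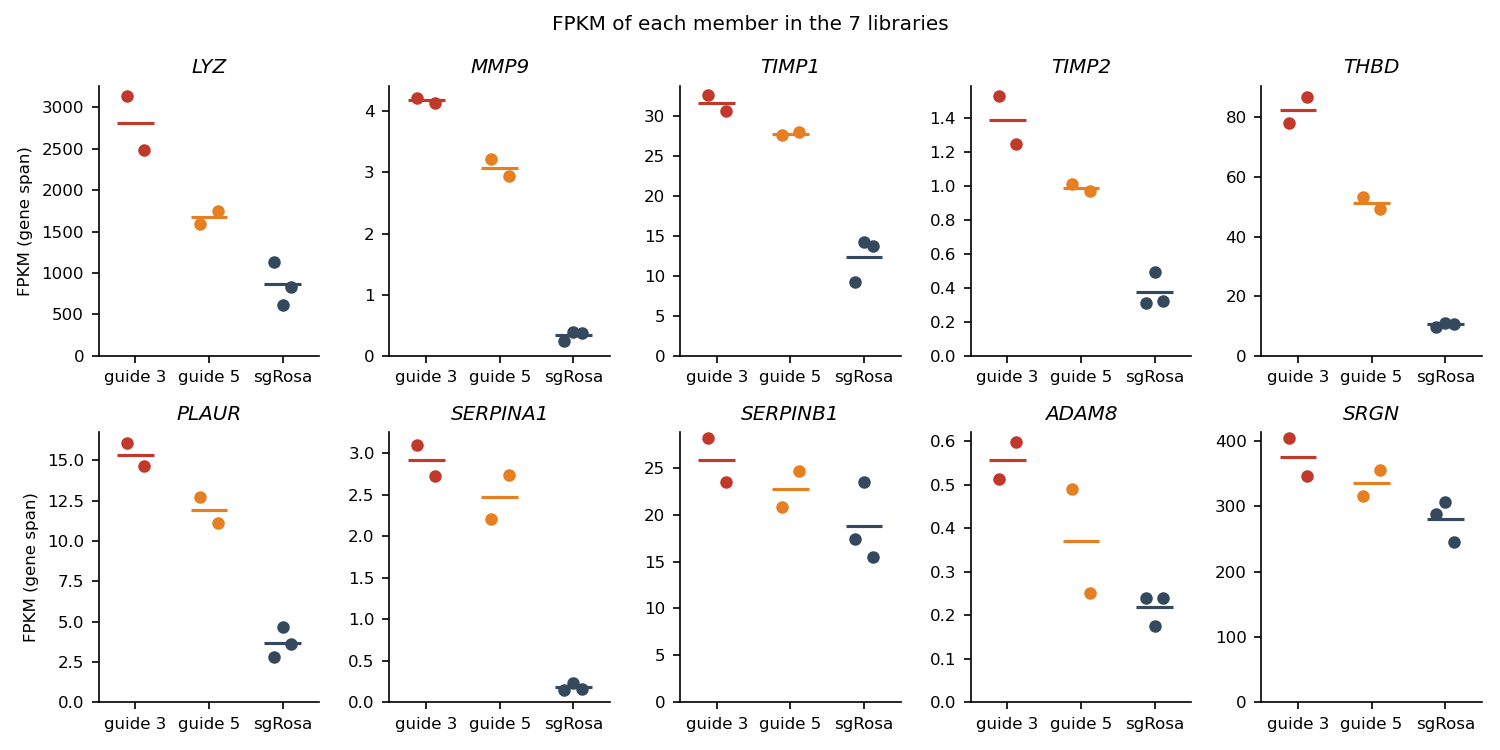
FPKM of each of the 10 members (vertical axes, each from 0) in the 7 libraries, grouped as guide 3, guide 5 and sgRosa, with points for libraries and bars for group means. SERPINB1 is the member in which guide and sgRosa libraries overlap, and SERPINA1 and MMP9 show the widest separation relative to sgRosa.

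LYZ (ENSG00000090382, chr12:69348341-69354234, plus strand), the lysozyme gene, had 3131 and 2483 FPKM in the guide 3 libraries and 1593 and 1751 FPKM in the guide 5 libraries, against 1138, 615 and 837 FPKM in the sgRosa libraries. The groups did not overlap, and the guide 5 libraries lay between the guide 3 and the sgRosa libraries. LYZ averaged 2239 ± 710 FPKM in guide libraries (SD, n = 4) and 863 ± 263 FPKM in sgRosa libraries (SD, n = 3). It rose by 1.37 ± 0.24 on the log2 scale of FPKM + 0.5 (SE, limma adjusted p = 0.00217). This single gene took 1.32% ± 0.379 of the reads in listed genes in guide libraries (SD, n = 4) and 0.525% ± 0.214 in sgRosa libraries (SD, n = 3). Quantile normalization, which forces the top values of all libraries to be equal, gave 0.63 with a limma adjusted p of 0.203.

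SRGN (ENSG00000122862, chr10:69088106-69104811, plus strand), which encodes serglycin, had 405 and 345 FPKM with guide 3 and 316 and 355 FPKM with guide 5, against 288, 306 and 245 FPKM with sgRosa. The groups did not overlap, yet the lowest guide library was close to the highest sgRosa library. The difference was 0.34 ± 0.18 (log2, SE) and did not pass the test (limma adjusted p = 0.143). It passed without sgRosa replicate 2 (0.41, adjusted p = 0.0491) and after a correction for GC content and transcript length (0.70, adjusted p = 0.00162). SRGN has the lowest transcript GC content of the 10 members, at 38.1%, while ADAM8 has the highest at 63.8%.

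MMP9 (ENSG00000100985, chr20:46008908-46016561, plus strand), the gelatinase of myeloid cells, had 4.21 and 4.14 FPKM with guide 3 and 3.22 and 2.93 FPKM with guide 5, against 0.247, 0.391 and 0.374 FPKM with sgRosa. All guide libraries lay far above all sgRosa libraries, and replicates of a guide were close together. Its mean was 3.63 ± 0.647 FPKM in guide libraries (SD, n = 4) and 0.337 ± 0.0788 FPKM in sgRosa libraries (SD, n = 3), a ratio of 10.7. The log2 change was 2.29 ± 0.13 (SE, limma adjusted p = 7.51e-07). The pseudocount of 0.5 shrinks such a change, and on recovered reads limma voom gave 3.41 ± 0.25 (adjusted p = 1.74e-06). The sgRosa libraries held only 35 to 70 reads of MMP9 each, so counting error is larger there.

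ADAM8 (ENSG00000151651, chr10:133262403-133276868, minus strand), a membrane metalloprotease of leukocytes, was the lowest of the members per kilobase of transcript in guide libraries and was too low for the test, with 54 to 331 reads per library. It had 0.512 and 0.598 FPKM with guide 3 and 0.489 and 0.251 FPKM with guide 5, against 0.239, 0.175 and 0.241 FPKM with sgRosa. Guide 5 replicate 2 lay just above the sgRosa libraries and the other 3 guide libraries well above them. An exact permutation test over libraries gave p = 0.0571 for a log2 difference of 0.41, where the smallest p that 35 relabelings allow is 0.0286. Without a filter on low values limma gave 0.41 ± 0.10 (SE, adjusted p = 0.0138), with 0.56 for guide 3 (adjusted p = 0.00935) and 0.26 for guide 5 (adjusted p = 0.147). The pseudocount shrinks this change too, and limma voom on recovered reads with no filter, added after the data were examined, gave 1.04 ± 0.31 (SE, adjusted p = 0.0160).

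TIMP1 (ENSG00000102265, chrX:47582313-47586789, plus strand), a secreted inhibitor that binds MMP9, had 32.6 and 30.7 FPKM with guide 3 and 27.6 and 28.0 FPKM with guide 5, against 9.26, 14.2 and 13.7 FPKM with sgRosa. The guide libraries were tightly grouped, at 29.7 ± 2.35 FPKM (SD, n = 4), and apart from the sgRosa libraries at 12.4 ± 2.72 FPKM (SD, n = 3). TIMP1 rose by 1.25 ± 0.18 (log2, SE, limma adjusted p = 0.000555), and by 0.76 after the GC and length correction (adjusted p = 0.00755).

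TIMP2 (ENSG00000035862, chr17:78852977-78925387, minus strand), which inhibits metalloproteinases and also helps to activate MMP2 on the cell surface, had 1.52 and 1.24 FPKM with guide 3 and 1.01 and 0.966 FPKM with guide 5, against 0.309, 0.496 and 0.324 FPKM with sgRosa. Its FPKM are low partly because its gene span is 72410 bases for a transcript of 3652 bases. The groups were apart, and TIMP2 rose by 0.94 ± 0.12 (log2, SE, limma adjusted p = 0.000233). On recovered reads, where the pseudocount matters less, limma voom gave 1.66 ± 0.20 (adjusted p = 8.63e-05).

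SERPINA1 (ENSG00000197249, chr14:94376747-94390693, minus strand) encodes alpha-1 antitrypsin, the main inhibitor of neutrophil elastase. It had 3.10 and 2.72 FPKM with guide 3 and 2.21 and 2.74 FPKM with guide 5, against 0.155, 0.231 and 0.164 FPKM with sgRosa. No other member had so high a ratio of means, 14.7, from 2.70 ± 0.366 FPKM in guide libraries (SD, n = 4) and 0.184 ± 0.0417 FPKM in sgRosa libraries (SD, n = 3). It rose by 2.22 ± 0.12 on the log2 scale of FPKM + 0.5 (SE, limma adjusted p = 7.51e-07), and by 3.87 ± 0.26 with limma voom on recovered reads (adjusted p = 8.68e-07). The sgRosa libraries held 40 to 69 reads of it, and the guide libraries 1116 to 1453.

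SERPINB1 (ENSG00000021355, chr6:2832332-2842006, minus strand) encodes an intracellular inhibitor of elastase, cathepsin G and proteinase 3. It had 28.1 and 23.4 FPKM with guide 3 and 20.8 and 24.6 FPKM with guide 5, against 17.4, 23.4 and 15.5 FPKM with sgRosa. Here, with the deposited scaling, sgRosa replicate 2 lay within the range of the guide libraries. The difference of 0.37 ± 0.18 (log2, SE) did not pass the test (limma adjusted p = 0.120). It passed without sgRosa replicate 2 (0.54, adjusted p = 0.0147), under median of ratios scaling (0.43, adjusted p = 0.0410) and after the GC and length correction (0.60, adjusted p = 0.00311).

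PLAUR (ENSG00000011422, chr19:43646095-43670547, minus strand), the urokinase receptor, whose promoter and heptamer site are shown above, had 16.0 and 14.6 FPKM with guide 3 and 12.7 and 11.1 FPKM with guide 5, against 2.80, 4.69 and 3.60 FPKM with sgRosa. The groups were far apart, with means of 13.6 ± 2.16 FPKM in guide libraries (SD, n = 4) and 3.70 ± 0.947 FPKM in sgRosa libraries (SD, n = 3). PLAUR rose by 1.76 ± 0.18 (log2, SE, limma adjusted p = 4.57e-05).

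THBD (ENSG00000178726, chr20:23045633-23049741, minus strand) encodes thrombomodulin, a surface protein that turns thrombin from a clotting enzyme into an activator of protein C. It had 78.2 and 86.7 FPKM with guide 3 and 53.4 and 49.3 FPKM with guide 5, against 9.86, 11.2 and 10.6 FPKM with sgRosa. The sgRosa libraries were nearly equal, and guide 5 libraries lay between them and guide 3 libraries. THBD rose by 2.57 ± 0.15 on the log2 scale of FPKM + 0.5 (SE, limma adjusted p = 9.26e-07), with a ratio of means of 6.34, below those of MMP9 and SERPINA1.

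**Figure D2:**
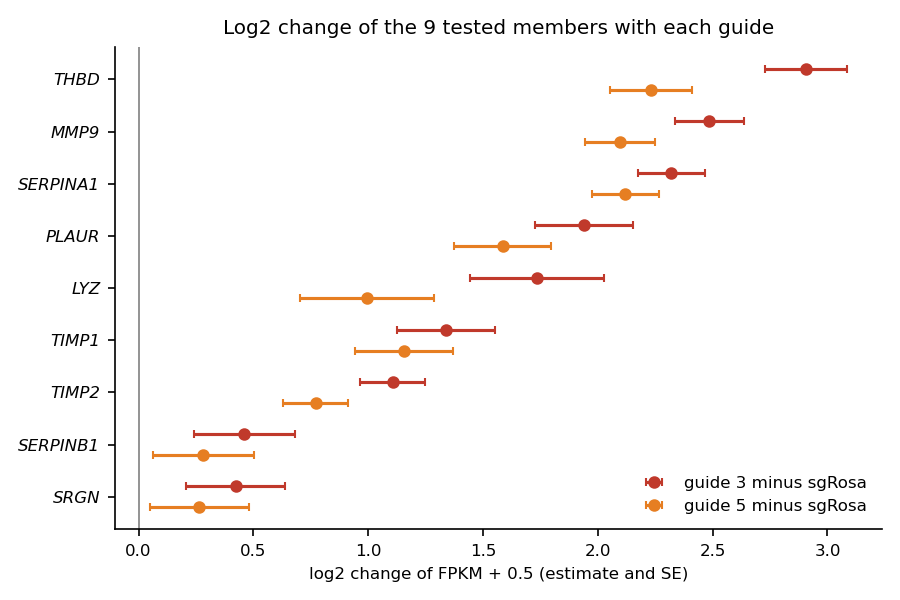
Log2 change of FPKM + 0.5 (horizontal axis) of the 9 tested members, for guide 3 minus sgRosa and guide 5 minus sgRosa, as estimates with SE bars from limma. With the deposited scaling shown, each of the 9 guide 5 estimates lies left of its guide 3 estimate (5 of 9 with the same sum of FPKM), and those of SERPINB1 and SRGN lie nearest to 0.

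Each guide was also set against the same 3 sgRosa libraries. With guide 3, 7 of the 9 tested members rose, against 23.5% of tested genes, with log2 changes of 2.91 for THBD, 2.49 for MMP9, 2.32 for SERPINA1, 1.94 for PLAUR, 1.74 for LYZ, 1.34 for TIMP1 and 1.11 for TIMP2. With guide 5, 7 of the 9 rose as well, against 12.4% of tested genes, by 2.23 for THBD, 2.12 for SERPINA1, 2.10 for MMP9, 1.59 for PLAUR, 1.16 for TIMP1, 1.00 for LYZ and 0.77 for TIMP2. Both counts include MMP9, SERPINA1 and TIMP2, which were tested only through the guide libraries. Of the members that sgRosa libraries also carried past the filter, LYZ, TIMP1, PLAUR and THBD rose with each guide. SERPINB1 and SRGN passed with neither. The limma adjusted p for LYZ was 0.00174 with guide 3 and 0.0386 with guide 5. With guide 5, LYZ did not pass with no filter on low values (limma adjusted p = 0.113) or the same sum of FPKM (0.0670). Under quantile normalization it passed with neither guide (limma adjusted p = 0.163 for guide 3 and 0.512 for guide 5). Without guide 5 replicate 1 the guide 5 count was 4, THBD, MMP9, SERPINA1 and PLAUR. That arm is then 1 library, assumed to vary like the other groups. LYZ was at 1.06 (adjusted p = 0.222), TIMP1 at 1.17 (0.0519) and TIMP2 at 0.75 (0.0561), close to their values with both libraries.

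With the deposited scaling the estimate was lower with guide 5 than with guide 3 in 9 of 9 tested members. It was lower in 9 of 9 under median of ratios scaling as well, but in 8 of 9 after the GC and length correction, in 6 of 9 under quantile normalization and in 5 of 9 with the same sum of FPKM. With the deposited scaling this was also so for 59.3% of all tested genes and for 84.2% of the genes that were higher with both guides. In the direct test of guide 5 against guide 3, 0 members passed by limma, where 0.737% of tested genes did. With limma voom on recovered reads 0 passed as well. The largest differences, for LYZ (-0.74), THBD (-0.68) and MMP9 (-0.39), had limma adjusted p of 0.409, 0.213 and 0.401. Without sgRosa replicate 2 the difference for THBD passed, with an adjusted p of 0.0481.

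The authors' deposited table of differential expression gave log2 fold changes over sgRosa of 3.98 with guide 3 and 3.75 with guide 5 for SERPINA1, and of 3.62 and 3.18 for MMP9. In the authors' deposited table SERPINB1 had 0.46 with guide 3 and 0.27 with guide 5, at false discovery rates of 0.114 and 0.392, and SRGN had 0.42 and 0.26, at 0.134 and 0.404. For ADAM8 the authors' deposited table gave 1.35 with guide 3 (false discovery rate 0.00698) and 0.77 with guide 5 (0.114).

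To compare genes with each other, CPM were divided by the length of 1 annotated transcript per gene in place of the gene span. On this scale LYZ and SRGN stood far above the other members, at 8625 ± 2734 and 4911 ± 510 in guide libraries (SD, n = 4), against 3325 ± 1012 and 3869 ± 436 in sgRosa libraries (SD, n = 3). LYZ exceeded SRGN in 4 of 4 guide libraries and in 1 of 3 sgRosa libraries. PLAUR, TIMP1, SERPINB1 and THBD followed in guide libraries, at 215 ± 34.2, 149 ± 11.8, 89.5 ± 11.2 and 66.9 ± 18.3 CPM per kilobase of transcript. In sgRosa libraries the same genes were at 58.4 ± 15.0, 62.2 ± 13.7, 69.4 ± 15.3 and 10.5 ± 0.653, so that PLAUR was above SERPINB1 in guide libraries and below it by its mean in sgRosa libraries.

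TIMP2, MMP9, SERPINA1 and ADAM8 were the lowest members, at 23.5 ± 5.08, 11.9 ± 2.12, 10.6 ± 1.44 and 2.04 ± 0.656 in guide libraries (SD, n = 4). In sgRosa libraries they were at 7.46 ± 2.06, 1.11 ± 0.258, 0.725 ± 0.165 and 0.962 ± 0.166 (SD, n = 3). The ranges of neighbours in this order overlapped for SERPINB1 and THBD and for MMP9 and SERPINA1 in guide libraries. In sgRosa libraries they overlapped for SRGN and LYZ, for SERPINB1 and TIMP1, for TIMP1 and PLAUR, for MMP9 and ADAM8 and for ADAM8 and SERPINA1. Among all listed genes THBD stood at the 89.7 percentile in guide libraries and the 47.1 percentile in sgRosa libraries, and SERPINA1 at the 47.5 and the 6.43 percentile.

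**Figure D3:**
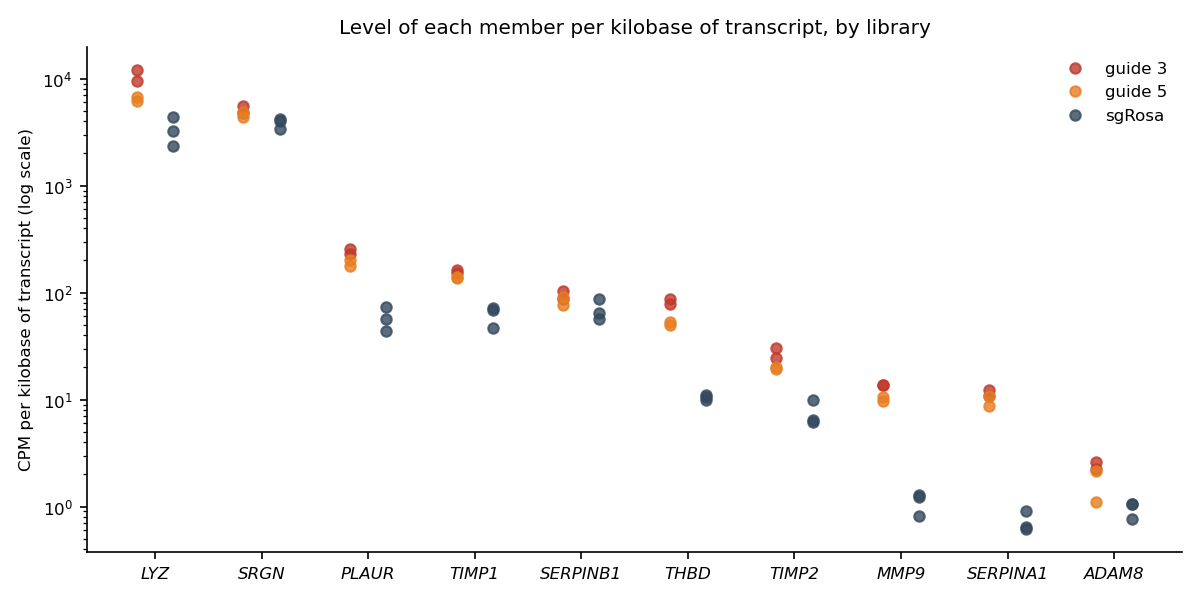
CPM per kilobase of transcript (log axis) of each member in the 4 guide and 3 sgRosa libraries, with members ordered by their mean in guide libraries. LYZ and SRGN are at 2368 or more in every library, while MMP9, SERPINA1 and ADAM8 are at 13.8 or less in every library.

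Because a protease acts against its inhibitors, log2 ratios of FPKM + 0.5 were also formed within each library. The pseudocount keeps library scaling from cancelling fully, most of all where MMP9 and SERPINA1 are low, so ratios of recovered reads are given too. Of 6 ratios, 3 separated all guide from all sgRosa libraries. Each of these 3 holds MMP9 or SERPINA1, which passed the filter only through the guide libraries and rose more than their partners. The separation is therefore no evidence apart from those rises, and no share over other gene pairs was computed. TIMP1 to MMP9 was 2.88 ± 0.134 in guide libraries (SD, n = 4) and 3.93 ± 0.188 in sgRosa libraries (SD, n = 3), and TIMP2 to MMP9 was -1.29 ± 0.0896 and 0.0636 ± 0.131. The differences were -1.04 and -1.35, so both inhibitors were lower relative to MMP9 in guide libraries, while each rose in its own level. The exact permutation p was 0.0286 for each, the smallest that 35 relabelings allow, and 0.0571 after Benjamini-Hochberg adjustment over the 6 ratios, which does not pass 0.05.

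SERPINA1 to SERPINB1, the ratio of the secreted to the intracellular elastase inhibitor, was -2.95 ± 0.0425 in guide libraries and -4.80 ± 0.223 in sgRosa libraries (exact permutation p = 0.0286, adjusted p = 0.0571). The 4 guide libraries were nearly equal in this ratio. Formed from recovered reads plus 1, the differences of these 3 ratios were -2.13, -1.75 and 3.48, with an adjusted permutation p of 0.0429 each. Their unadjusted permutation p was still 0.0286. The adjusted p is lower only because SERPINA1 to ELANE also reached 0.0286 on this scale.

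ELANE, which encodes neutrophil elastase, was the protease partner of both serpins. It had 125 and 189 FPKM with guide 3 and 109 and 71.2 FPKM with guide 5, against 35.9, 36.3 and 58.4 FPKM with sgRosa, and rose by 1.45 ± 0.25 (log2, SE, limma adjusted p = 0.00173). SERPINB1 to ELANE differed by -1.07 and overlapped between groups (exact permutation p = 0.114). SERPINA1 to ELANE differed by 0.77 and overlapped as well (exact permutation p = 0.143), but with reads plus 1 it differed by 2.41 without overlap (exact permutation p = 0.0286). TIMP1 to TIMP2 differed by 0.31 with FPKM + 0.5 and by -0.38 with reads plus 1 (exact permutation p = 0.0857 for both), so its direction depends on the scale.

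**Figure D4:**
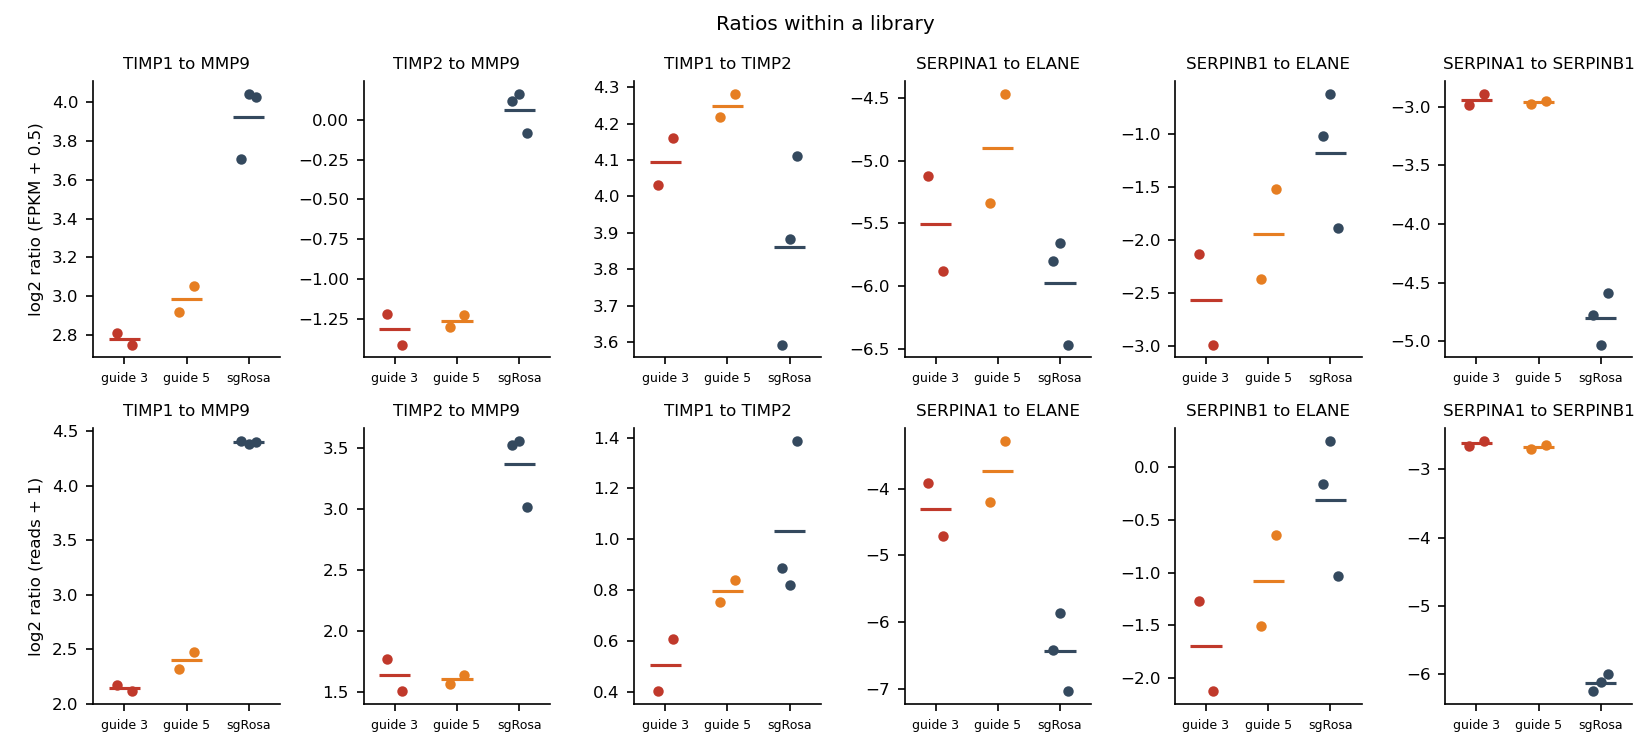
Log2 ratio of each pair of genes within a library (vertical axes), from FPKM + 0.5 in the upper row and from recovered reads plus 1 in the lower row, with points for libraries and bars for group means. TIMP1 to MMP9, TIMP2 to MMP9 and SERPINA1 to SERPINB1 separate the 4 guide from the 3 sgRosa libraries in both rows. Each holds MMP9 or SERPINA1, which passed the filter only through the guide libraries.

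Genes with related roles were counted in the same fit, the members themselves left out, with 22.5% of tested genes higher and 19.7% lower as the background. Of the other 19 matrix metalloproteinases 4 could be tested and 4 rose, with a median log2 change of 1.18. MMP25, a membrane-anchored metalloproteinase of leukocytes, had 4.85 and 5.12 FPKM with guide 3 and 2.32 and 1.92 FPKM with guide 5, against 0.338, 0.326 and 0.455 FPKM with sgRosa. It rose by 2.12 ± 0.13 (SE, limma adjusted p = 1.21e-06) and, unlike the members, also differed between guides (guide 5 minus guide 3 -1.07, limma adjusted p = 0.0140). MMP19 rose by 1.46 ± 0.11 (SE, limma adjusted p = 4.69e-06). MMP17, MMP19 and MMP25 reached 1 FPKM in no sgRosa library and so were tested only through the guide libraries, and of the 1 gene that sgRosa libraries also carried past the filter, MMP14, 1 rose. After the GC and length correction 3 of the 4 rose. Of 22 other ADAM and ADAMTS proteases 4 were tested and 0 passed, at limma adjusted p of 0.228 or more and also with limma voom, and the median was 0.01. After the GC and length correction 3 of these 4 rose and 1 fell, with a median of 0.26, and with no filter on low values 4 of 11 rose, so the count depends on the processing.

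In the plasminogen system, which PLAUR serves, 3 of 5 tested genes rose and 0 fell. Of the 3, LRP1 was tested only through the guide libraries, and without it 2 of 4 rose. PLAU, the urokinase that binds the PLAUR product, averaged 14.4 ± 0.786 FPKM in guide libraries (SD, n = 4) and 7.70 ± 1.42 FPKM in sgRosa libraries (SD, n = 3), a rise of 0.88 ± 0.16 (log2, SE, limma adjusted p = 0.00270). LRP1, an endocytic receptor that clears protease and inhibitor complexes, rose by 2.67 ± 0.14 (SE, limma adjusted p = 5.62e-07), with 1.79 to 4.80 FPKM in guide libraries and 0.0388 to 0.0695 FPKM in sgRosa libraries. PLAU and PLAUR were thus each higher in every guide library than in every sgRosa library. That held for 21% of all tested genes.

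Of 3 tested genes of coagulation and the protein C pathway, where THBD acts, PROCR alone rose with the deposited scaling. This receptor for protein C, which presents it to the thrombin and thrombomodulin complex, averaged 2.30 ± 0.713 FPKM in guide libraries (SD, n = 4) and 1.17 ± 0.131 FPKM in sgRosa libraries (SD, n = 3), a log2 change of 0.71 ± 0.13 (SE, limma adjusted p = 0.00242). It passed with guide 3 (1.03, adjusted p = 0.000859) and not with guide 5 (0.39, adjusted p = 0.0963), and the direct difference between guides did not pass (adjusted p = 0.170). F3, tissue factor, the trigger of clotting, had a difference of -0.41 (limma adjusted p = 0.0821). It passed as lower under quantile normalization (-0.44, adjusted p = 0.0279), the same sum of FPKM (-0.55, adjusted p = 0.0143) and median of ratios scaling (-0.36, adjusted p = 0.0495). It also passed without sgRosa replicate 1 (-0.57, adjusted p = 0.0461) and with the replicate block (-0.48, adjusted p = 0.0235). The block is no separate check from leaving out sgRosa replicate 3, and there F3 did not pass. After the GC and length correction F3 was at -0.15 (adjusted p = 0.316), and GGCX, the carboxylase of vitamin K-dependent clotting factors, rose beside PROCR (0.42, adjusted p = 0.0384).

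Of 3 other serpins tested 1 rose, SERPINF1, which encodes pigment epithelium-derived factor and has no protease inhibitor activity. It had 1.96 to 3.26 FPKM in guide libraries and 0.325 to 0.737 FPKM in sgRosa libraries, and rose by 1.50 ± 0.16 (SE, limma adjusted p = 6.27e-05). It was tested only through the guide libraries, and of the 2 other serpins that sgRosa libraries also carried past the filter 0 rose. Of 6 other protease inhibitors tested 3 rose and 2 fell, with a median of 0.37. CST3, the secreted cathepsin inhibitor cystatin C, averaged 70.2 ± 26.8 FPKM in guide libraries (SD, n = 4) and 19.2 ± 7.24 FPKM in sgRosa libraries (SD, n = 3), a rise of 1.82 ± 0.23 (log2, SE, limma adjusted p = 0.000233). CSTB, an intracellular cystatin, rose by 1.06 ± 0.16 (SE, limma adjusted p = 0.000850). PEBP1, which encodes an inhibitor of Raf signaling that belongs to a family of serine protease inhibitors, fell by 0.76 ± 0.15 on the log2 scale (SE, limma adjusted p = 0.00412).

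CST7, which encodes cystatin F, fell by 0.64 ± 0.19 on the log2 scale with both guides together (SE, limma adjusted p = 0.0206). It averaged 2.60 ± 0.147 FPKM with guide 3 and 6.10 ± 0.563 FPKM with guide 5 (SD, n = 2 each), against 6.71 ± 1.94 FPKM with sgRosa (SD, n = 3). The guide 5 libraries lay within the sgRosa range and the guide 3 libraries below it, while the direct difference between guides did not pass (1.09, limma adjusted p = 0.0967). CST7 did not pass without guide 3 replicate 1, guide 3 replicate 2 or guide 5 replicate 2, so that 1 of the 6 inhibitors then fell.

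Of the 6 neutrophil serine proteases and their activator, all tested, 2 rose and 1 fell. ELANE rose as given above. AZU1, an inactive relative of elastase with antimicrobial activity, rose by 0.89 ± 0.24 (SE, limma adjusted p = 0.0159), but its groups overlapped, and after the GC and length correction its change was 0.07 (adjusted p = 0.595). CTSC, the protease that activates the others, fell by 0.60 ± 0.14 on the log2 scale (SE, limma adjusted p = 0.00922). The median of the list was 0.28, and -0.37 after the GC and length correction, under which 1 rose and 3 fell. Transcript GC content was 66.8% for ELANE, 67.5% for AZU1 and 45.2% for CTSC. Without sgRosa replicate 3, and with the replicate block, 3 of the 6 rose. The number that rose was 1 when sgRosa replicate 1, guide 5 replicate 1 or guide 3 replicate 2 was left out, and in the last case CTSC did not pass either (-0.58, limma adjusted p = 0.0508).

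Among 5 other tested secreted antimicrobial proteins, the class to which lysozyme belongs, 2 rose and 0 fell. HP was tested only through the guide libraries, and of the other 4 genes 1 rose. Without sgRosa replicate 2 the count was 4 of 5, with RNASE2 (0.66, limma adjusted p = 0.0119) and RNASE6 (0.45, limma adjusted p = 0.0226), which encode secreted ribonucleases, also past the threshold. HP, which encodes the hemoglobin-binding haptoglobin, had 2.79 to 6.05 FPKM in guide libraries and 0.234 to 0.499 FPKM in sgRosa libraries, and rose by 2.28 ± 0.17 (SE, limma adjusted p = 5.38e-06). CHI3L1, a chitinase-like glycoprotein secreted by macrophages, had 37.1 to 48.3 FPKM in guide libraries and 8.58 to 13.7 FPKM in sgRosa libraries, and rose by 1.96 ± 0.19 (log2, SE, limma adjusted p = 3.03e-05).

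Enzymes that build the chondroitin chains carried by serglycin were counted beside SRGN. Of 11 tested, 5 rose and 0 fell, with a median of 0.29. Without sgRosa replicate 2 the number that rose was 7, and without sgRosa replicate 3 it was 6. The count was 2 without guide 5 replicate 1, and 3 without guide 3 replicate 2, without sgRosa replicate 1 and with the same sum of FPKM. CHPF and CHPF2, partners in chain extension, rose by 0.96 ± 0.20 (SE, limma adjusted p = 0.00473) and 0.76 ± 0.16 (SE, limma adjusted p = 0.00558). With guide 5 alone 1 of the 11 passed, and after the GC and length correction 4 rose and 2 fell, with CHPF2 at 0.21 (limma adjusted p = 0.0866). The genes of these 9 lists were chosen with results of these libraries known, and several lists had fewer than 6 testable genes.

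**Figure D5:**
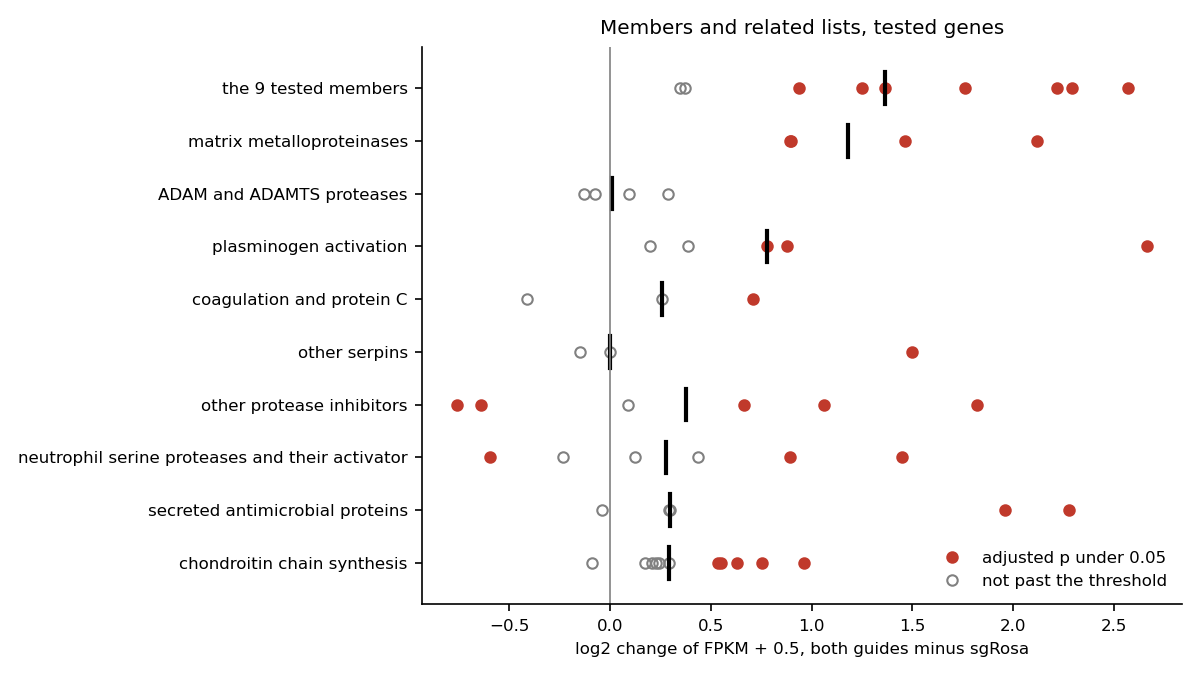
Log2 change of FPKM + 0.5 with both guides over sgRosa (horizontal axis) for the 9 tested members and for tested genes of the 9 related lists, with filled points for a limma adjusted p under 0.05, open points for the rest, and a bar at each list's median. The 4 matrix metalloproteinases lie right of 0 and pass, and the 4 ADAM and ADAMTS genes lie around 0 and do not, whereas after the GC and length correction 3 of 4 rose in each list and 1 ADAM gene fell.

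Counting could mix reads in a few members. LYZ, MMP9 and TIMP2 each share exon bases with an antisense gene in GENCODE 29, and TIMP2 with CEP295NL on its own strand. The kit marks strand, but which strand was counted is not given in the sources used here, so reads of these pairs cannot be told apart. None of the 4 partner genes had a row of its own among the genes with a value.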

How the data were processed

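Poly(A)-selected RNA was sequenced single-end from a directional kit, per the labels' protocols. The submitters' processing notes name STAR 2.5.3, HTSeq, edgeR and limma with GRCh38.p7 and hg38, without roles. The authors deposited FPKM for each library, and a table with log2 fold changes, p-values, false discovery rates and group mean CPM; 2 mean columns were not used. Dividing the deposited mean CPM by mean FPKM gave a whole length (within 0.01 bases) for 11398 of 11408 genes, equal to the gene span for 8067, and with it whole reads for 100% of values (within 0.01), so 1 read stood for 0.0261 to 0.0540 CPM. Reads carry no molecular identifiers, so depth covers counting error only.

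Genes at 1 FPKM or above in 2 or more libraries, 6783 in all, entered a fit of log2(FPKM + 0.5) by limma 3.58.1 under R 4.3.3 (3 group means, trended variances with 6.21 prior and 4 residual degrees of freedom, two-sided, Benjamini-Hochberg over all tested genes, threshold 0.05). The fit was tested on simulated data. Ratios were tested by exact two-sided permutation over libraries. Related genes named are those past the threshold with the 2 highest and 2 lowest changes of each list; other genes were named after their values were seen. Members and lists were chosen with earlier results of these data known. Guide 3 and guide 5 are column names that the labels do not pair with their own guide numbers. Software was Python 3.11.15, scipy 1.17.1, numpy 2.4.6, pandas 2.3.3 and, for figures, matplotlib 3.10.9. Alternatives were other pseudocounts, filters, scalings, a replicate block, no variance trend, limma voom on recovered reads, a correction for GC content and transcript length, and each library left out.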

Additional observations from a re-analysis of the deposited data

How the results depend on the processing

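The count of 7 members higher with both guides stayed within 1.5 times of itself in 18 of 19 alternatives. A mean FPKM of at least 5 left 4 of 6 tested members, because MMP9, TIMP2 and SERPINA1 were no longer tested. Then 4 members were called with guide 3 and 4 with guide 5. In all, 899 of 2347 tested genes were called, 557 of them higher. Limma voom with no filter, added after the data were examined, called 4784 of 11398 tested genes, against 2865 of 6783. With each library left out, members higher numbered 7 to 9, calls over all genes 1561 to 3439 (1574 without guide 3 replicate 2 and 1561 without guide 5 replicate 1), members called with guide 5 numbered 4 to 7, and members called between guides 0 to 1. The ratios of TIMP1 to MMP9, TIMP2 to MMP9 and SERPINA1 to SERPINB1 then ranged over -1.15 to -0.98, -1.43 to -1.30 and 1.73 to 1.95, in designs where p cannot fall below 0.0667 or 0.1. TIMP1 to TIMP2 was -0.16 with a pseudocount of 0.1 and -0.38 with reads plus 1, both reversed, and 0.55 with a pseudocount of 1. SERPINA1 to ELANE was 1.85 with a pseudocount of 0.1 and 2.41 with reads plus 1, where the small pseudocount weighs less on SERPINA1. With every library brought to the same sum of FPKM, the median of all tested genes was -0.17. With both guides together, each of the 7 members passed under it, under median of ratios scaling and under the GC and length correction. Under quantile normalization the exception was LYZ. Calls over all genes were 1526 higher and 1339 lower, against 1150 and 2377 with the same sum, 1356 and 1930 with quantile normalization and 1230 and 1736 with the GC and length correction. The replicate block gave the same 7 members higher and 3394 calls. Replicate 3 exists only for sgRosa, so the member estimates equal those without sgRosa replicate 3 (LYZ 1.37 in both) and are no separate check. Deviations of same-numbered guide libraries correlated at -0.57. With 2 libraries a guide these deviations are mirror images, so unlike numbers gave 0.57 and pairing could not be settled. Deviations of sgRosa replicate 3 correlated at 0.60 with guide 3 replicate 2 and 0.68 with guide 5 replicate 1, and at the mirrored values with the other guide libraries. MMP9, SERPINA1 and ADAM8 rest on few reads in sgRosa libraries, which limits the precision of their fold changes.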
